A study of Mus musculus with 12 samples.

Results

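The genes described here are 7 mouse genes of the NRF2 pathway and of the response to oxidative stress: Gclm, Srxn1, Slc7a11, Osgin1, Sqstm1, Prdx1 and Mt1. They were measured by 9 probes, 3 of them for Srxn1 and 1 for each other gene, of 46301 probes in the deposited table of normalized values. Every probe whose identifier holds the gene's Entrez number was taken, and all 9 passed the filter on dim probes that left 16717 probes for testing. Total RNA came from organotypic slice cultures, living sections of the hippocampus of C57BL/6J mice of mixed gender, and was hybridised to Illumina Mouse-6 v1.1 BeadChips, with 12 arrays in 4 groups of 3. The IS + DIDS slices spent 2 h in an ischemic solution (IS) together with DIDS, a stilbene disulfonate with isothiocyanate groups used as a blocker of anion transport across membranes. The ACSF + DIDS slices were kept for 2 h with DIDS in ACSF, artificial cerebrospinal fluid, the IS slices in ischemic solution alone, and the Control ACSF slices in ACSF alone. The labels give no genetic change in any group, do not say whether replicates came from separate animals or cultures, and do not give the composition of the ischemic solution. The p-values therefore measure the spread between these arrays, which may be technical.

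NRF2 is a transcription factor that the adaptor KEAP1 sends for degradation in unstressed cells. Electrophiles and oxidants modify cysteines of KEAP1, after which NRF2 accumulates, pairs with a small MAF protein and binds the antioxidant response element (ARE) of its target genes, a site that the repressor BACH1 can occupy instead. In brain, targets of NRF2 are best known from astrocytes, which supply neurons with precursors of glutathione. Among the genes described here, Slc7a11 encodes the cystine importer of the cystine/glutamate exchanger and Gclm the modifier subunit of the enzyme that starts glutathione synthesis. Srxn1 encodes sulfiredoxin, which repairs overoxidised peroxiredoxins, and Prdx1 encodes one of these peroxidases. Sqstm1 encodes p62, an autophagy receptor that binds KEAP1, Osgin1 encodes an oxidative stress-induced growth inhibitor, and Mt1 encodes a metallothionein, a metal-binding protein induced through the metal-responsive factor MTF1.

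The promoters of 4 members are shown, Osgin1 because it was the member whose level passed a test, and Srxn1, Prdx1 and Gclm because they hold a match to the ARE core. The windows are RefSeq sequence of build GRCm38.p6 on the + strand, 300 bases each, from 250 bases before the table's start site of the gene to 50 after it. They lie at chr8:119436897-119437196 for Osgin1, chr2:152105274-152105573 for Srxn1, chr4:116685349-116685648 for Prdx1 and chr3:122245307-122245606 for Gclm, and capitals mark the ARE match.
Osgin1: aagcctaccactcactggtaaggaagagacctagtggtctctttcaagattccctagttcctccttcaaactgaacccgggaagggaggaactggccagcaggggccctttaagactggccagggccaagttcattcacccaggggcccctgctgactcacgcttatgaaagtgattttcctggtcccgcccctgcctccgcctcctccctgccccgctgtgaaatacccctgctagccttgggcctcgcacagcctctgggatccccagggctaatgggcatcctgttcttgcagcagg
Srxn1: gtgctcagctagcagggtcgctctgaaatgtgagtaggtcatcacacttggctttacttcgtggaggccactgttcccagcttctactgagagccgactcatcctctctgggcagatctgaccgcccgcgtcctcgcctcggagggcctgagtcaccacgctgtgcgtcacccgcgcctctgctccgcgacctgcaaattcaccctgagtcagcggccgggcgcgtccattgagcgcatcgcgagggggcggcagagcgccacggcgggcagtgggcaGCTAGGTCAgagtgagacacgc
Prdx1: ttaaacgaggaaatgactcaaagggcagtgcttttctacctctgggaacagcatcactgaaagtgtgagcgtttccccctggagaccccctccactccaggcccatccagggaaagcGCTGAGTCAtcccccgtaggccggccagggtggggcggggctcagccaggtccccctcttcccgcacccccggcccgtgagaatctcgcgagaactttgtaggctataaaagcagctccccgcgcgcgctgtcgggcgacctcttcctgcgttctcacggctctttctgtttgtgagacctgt
Gclm: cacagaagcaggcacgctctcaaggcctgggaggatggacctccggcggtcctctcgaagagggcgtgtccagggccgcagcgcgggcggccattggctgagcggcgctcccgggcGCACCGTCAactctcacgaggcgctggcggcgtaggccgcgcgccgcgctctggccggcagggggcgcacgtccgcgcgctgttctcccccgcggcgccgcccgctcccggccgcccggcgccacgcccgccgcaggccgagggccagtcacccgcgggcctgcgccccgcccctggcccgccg
The ARE core was searched as TGACNNNGC on both strands. Each of the 3 matches read on the antisense strand, starting at position 29 after the start site in Srxn1, at -133 in Prdx1 and at -134 in Gclm. The Osgin1, Slc7a11, Sqstm1 and Mt1 windows held no match, which says only that these letters were not in these windows. Forms of the site with other letters were not searched in any window. The Osgin1 window lies inside the gene's span, chr8:119425882-119446257, and the Slc7a11 window also lies inside that gene's span. The outer ends of these spans were not searched. Over all 32851 promoters of the table, 12.4% held the ARE core. The Mt1 window held 3 matches to the metal response element core TGCNCNC, at positions -23, 3 and 21, and 51% of all promoters held at least 1. The Gclm and Srxn1 windows also held 3 each, unmarked above, and the windows of the other members held none. The build of the arrays' design is not given in the sources used here, so the probes were not placed on these coordinates.

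Several arrays bear on every result below. The scanner exports held only 9 distinct arrays, 3 of them filed under a pair of titles each, whereas the authors' table held 12 distinct columns. The exports filed as IS 2, ACSF + DIDS 1 and IS + DIDS 1 repeat the arrays of ACSF + DIDS 3, IS + DIDS 2 and IS + DIDS 3, so the values of those 3 arrays come from the table alone, with no detection score and no known chip. The array titled ACSF + DIDS 2 is described in its own record as IS + DIDS. Its deviations from the mean over arrays correlated at 0.5 and 0.2 with those of ACSF + DIDS 1 and 3, and at -0.53 to 0.054 with those of the IS + DIDS arrays, and it was kept under its title. The array IS + DIDS 1 stood apart, with a median correlation with the other arrays of 0.960. Among the remaining 11 arrays this median was 0.976 to 0.982. Control ACSF 1 and 2 and IS 1 were on 1 chip, and Control ACSF 3, IS 3, ACSF + DIDS 2 and 3 and IS + DIDS 2 and 3 on another, called chip 2, so no DIDS array of known chip shared a chip with the first 3. Of 42 listed markers of neurons, astrocytes, microglia, oligodendrocytes and vascular or meningeal cells, 19 could be tested, 4 or more for each type except the vascular and meningeal list, of which only Dcn could be tested. None passed in any comparison (limma, smallest adjusted p = 0.111 in the 6 comparisons, with 0 to 3 markers at an unadjusted p under 0.05), and single markers differed by -0.80 to 0.86 on the log2 scale. An unadjusted p under 0.05 was reached by 1458 to 3498 of all 16717 tested probes in these comparisons. The part of the markers in the results below was not tested. Fewer cells of a type and less RNA per cell cannot be told apart in such bulk samples.

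Osgin1 was the only member that passed the test in any comparison, and it was high in 1 group, ACSF + DIDS. Its normalized intensity was 149.4, 115.3 and 120.5 on the IS + DIDS arrays, 422.5, 405.4 and 335.2 on the ACSF + DIDS arrays, 135.4, 104.5 and 105.3 on the IS arrays, and 170.5, 242.7 and 135.3 on the Control ACSF arrays. The 3 ACSF + DIDS values lay above those of all 9 other arrays, and the IS + DIDS and IS values overlapped near the bottom of the range. The probe was dim: BeadStudio's score placed it above background on 5 of the 9 scored arrays, which were both scored ACSF + DIDS arrays and all 3 Control ACSF arrays, and on none of the 4 scored arrays exposed to ischemic solution. Osgin1 lies at chr8:119425882-119446257 in GRCm38.p6.

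The first question was what DIDS did in the absence of ischemia. In ACSF, Osgin1 averaged 387.7 ± 46.3 with DIDS and 182.8 ± 54.8 in Control ACSF (SD, n = 3 each). The difference was 1.25 on the log2 scale, a 2.38-fold rise (SE 0.231, 95% interval 0.75 to 1.76, limma adjusted p = 0.0318), and the groups did not overlap. It was 1 of 9 member probes that passed, against 0.562% of all tested probes in either direction and 0.173% in the higher direction. The rise lost its call in 6 of 12 fits that left out 1 array, namely any ACSF + DIDS array, IS 2, Control ACSF 1 or Control ACSF 3 (adjusted p = 0.0515 to 0.148, log2 difference 1.02 to 1.51 over the 12 fits). Within chip 2, with 2 ACSF + DIDS arrays and 1 control, the log2 difference was 1.64 (limma adjusted p = 0.044, the lone control being assumed to vary like the other groups), and with chip as a block on the 9 arrays of known chip it was 1.58 (adjusted p = 0.0413). When ACSF + DIDS 2 was counted as IS + DIDS, as its description says, the log2 difference was 1.21 and the adjusted p 0.621. Beside this rise, the fibroblast and meningeal marker Dcn had 3141.1 to 5077.9 in ACSF + DIDS and 1770.8 to 2412.9 in Control ACSF (log2 difference 0.86, limma adjusted p = 0.302). The oligodendrocyte lineage marker Olig2 had 133.9 to 151.7 in ACSF + DIDS and 177.7 to 241.9 in Control ACSF (log2 difference -0.64, adjusted p = 0.45), and the neuronal marker Map2 had 719.1, 713.8 and 696.4 in ACSF + DIDS and 530.8 to 620.8 in Control ACSF (log2 difference 0.35, adjusted p = 0.757). None of these 3 markers overlapped between the groups and none passed. The groups did not overlap for 15.6% of all tested probes. The neuronal marker Rbfox3 did not overlap either, at 8263.9 to 10318.5 in ACSF + DIDS and 6850.1 to 7945.2 in Control ACSF. Of the 4 oligodendrocyte markers 1 was above 0 and 3 below, with a median log2 difference of -0.10. Their summed intensity was 11085.9 to 15208.5 in ACSF + DIDS and 12005.2 to 13564 in Control ACSF. The summed intensity of the 6 neuronal markers was 24780.3 to 28564.5 in ACSF + DIDS and 21223.9 to 25164.3 in Control ACSF, and that of the 4 astrocyte markers 26626.4 to 37653.9 in ACSF + DIDS and 31864.4 to 38458.3 in Control ACSF.

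The other 8 member probes did not pass between ACSF + DIDS and Control ACSF, and each of their log2 differences lay between -0.12 and 0.19. The intervals give what these arrays could have missed. For Gclm the 95% interval ran from -0.36 to 0.38, for Prdx1 from -0.33 to 0.19, for Mt1 from -0.28 to 0.22, and for the brightest Srxn1 probe from -0.46 to 0.23, all on the log2 scale. Sqstm1 had the highest of these differences, 0.19 (interval -0.07 to 0.45, limma adjusted p = 0.69). The median over the 9 member probes was -0.04, beside 0.01 over all tested probes.

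**Figure D1:**
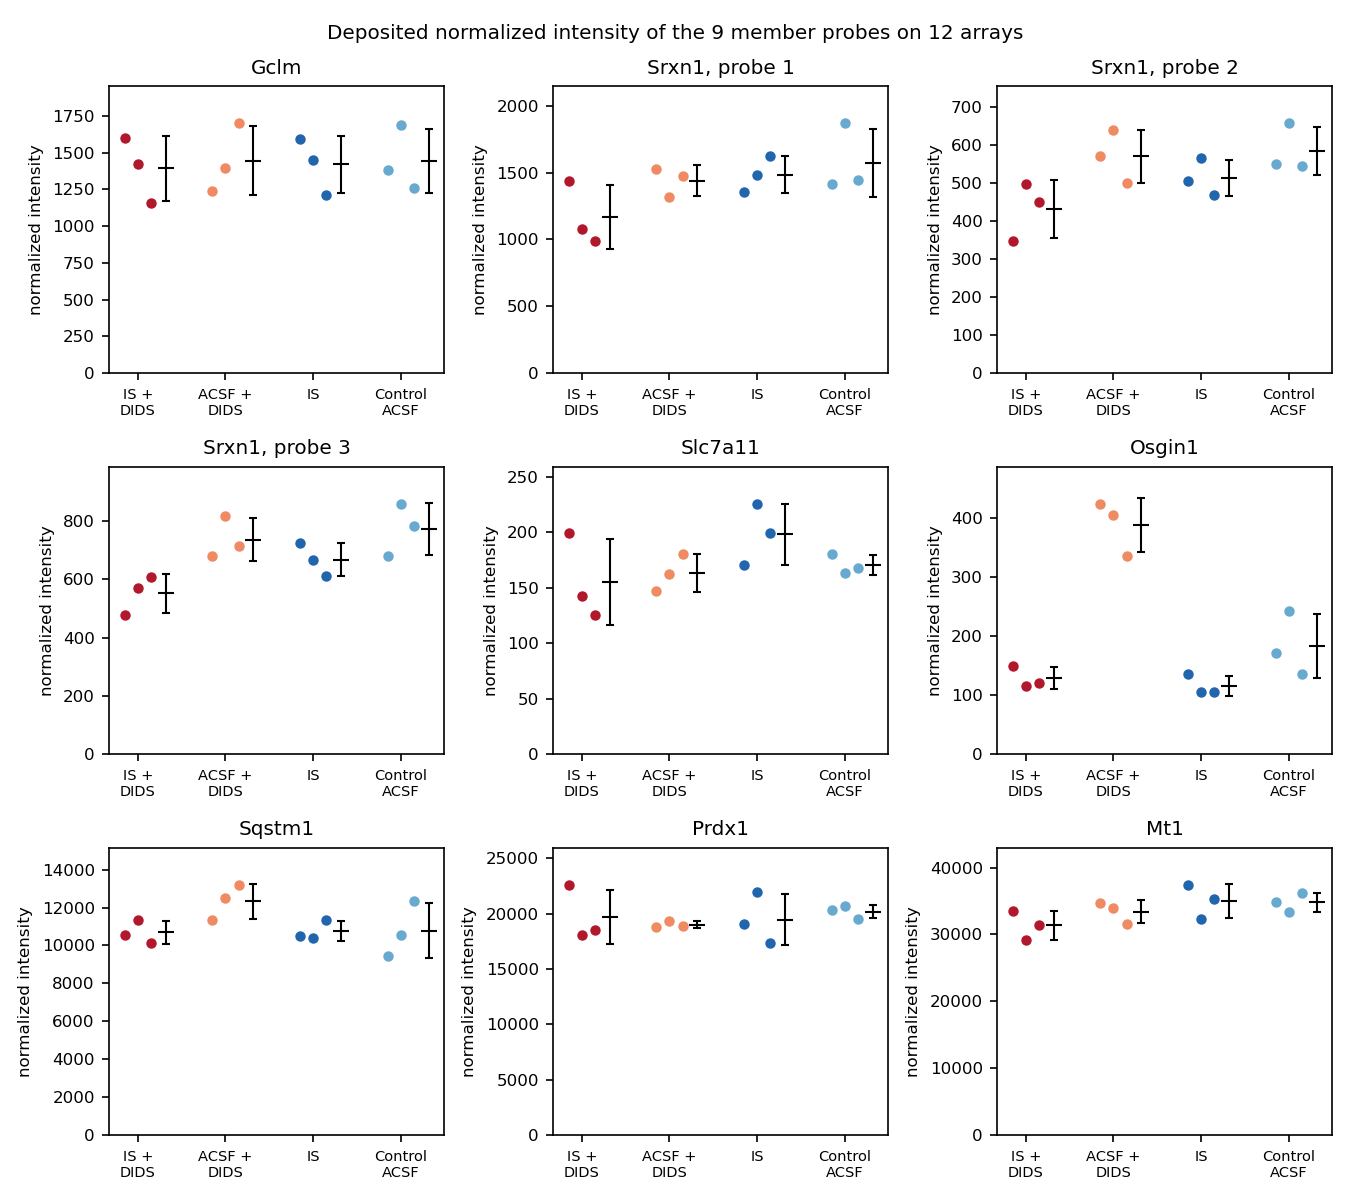
Deposited normalized intensity (vertical axes, linear and starting at 0) of the 9 probes on each array, with the 4 groups along the horizontal axis, a point for each array and, at its right, the group mean with its SD (n = 3). The Osgin1 values of the 3 ACSF + DIDS arrays, 335.2 to 422.5, sit above all others, and for most other probes the groups overlap; Srxn1 probes 1 to 3 are in the order of the text.

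Osgin1 was also lower in IS + DIDS than in ACSF + DIDS slices, the comparison of the ischemic solution when DIDS was present in both. It averaged 128.4 ± 18.4 in IS + DIDS and 387.7 ± 46.3 in ACSF + DIDS (SD, n = 3 each), a log2 difference of -1.79 (SE 0.231, 95% interval -2.30 to -1.29, limma adjusted p = 0.00222). As the probe was not well above background on either scored IS + DIDS array, the estimate is given as at least 3.27-fold lower. This bound was set on the background-corrected log2 levels against the detection limit of the scored arrays. It leaves out the spread between arrays, and the 95% interval reaches smaller differences. The bound holds on that scale only: without background correction the log2 difference was -1.58 (adjusted p = 0.00152). It was 1 of 9 member probes that passed, against 2.55% of all tested probes in either direction and 1.56% in the lower direction. The call held in all 12 fits without 1 array, with log2 differences of -1.95 to -1.69, and within chip 2, with 2 arrays of each group, at -1.88 (adjusted p = 0.0139). It was lost when ACSF + DIDS 2 was counted as IS + DIDS (log2 difference -1.28, adjusted p = 0.5). Beside this difference, 5 of the 6 tested neuronal markers had a log2 difference below 0, and the summed intensity of the 6 was 22940.2 to 24327 in IS + DIDS and 24780.3 to 28564.5 in ACSF + DIDS. The neuronal marker Map2 had 439.8, 380.1 and 425.3 in IS + DIDS and 719.1, 713.8 and 696.4 in ACSF + DIDS, a log2 difference of -0.80 (limma adjusted p = 0.117). The astrocyte marker Gfap had 12034.2, 16778.5 and 14387.2 in IS + DIDS and 16874.5, 17490.2 and 19395.1 in ACSF + DIDS. Its log2 difference was -0.35 (limma adjusted p = 0.187). Map2 and Gfap did not overlap between these groups, as 26% of all tested probes did not, and neither passed. The 4 astrocyte markers went both ways, 2 above and 2 below 0 (log2 differences -0.35 to 0.69). Among them, Slc1a2 had 239.1 to 263.1 in IS + DIDS and 207.3 to 235.7 in ACSF + DIDS. S100b had 2149.9 to 5563.5 in IS + DIDS and 1327.4 to 3084.3 in ACSF + DIDS. The summed intensity of the 4 astrocyte markers was 25112.8 to 31284.8 in IS + DIDS and 26626.4 to 37653.9 in ACSF + DIDS. The 4 oligodendrocyte markers were all above 0 (log2 differences 0.15 to 0.29), as were the 4 microglial markers (0.03 to 0.39). Dcn was below 0, at -0.27, and none of these passed.

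In the ischemic solution alone Osgin1 was at 104.5 to 135.4 on the IS arrays and 135.3 to 242.7 on the Control ACSF arrays. The ranges touched as intensities, and the fitted log2 levels did not overlap. The log2 difference was -0.76 (95% interval -1.27 to -0.26), but the limma adjusted p was 0.237 and the call failed. By the same bound on the same scale the estimate is at least 1.54-fold lower. That bound leaves out the spread between arrays, and the interval reaches smaller differences. It holds on that scale only. No member probe passed in this comparison (0 of 9, against 0.885% of all tested probes). Only Osgin1 had an unadjusted p below the threshold, at 0.00623, as did 1493 of all 16717 tested probes. In the presence of ischemic solution DIDS moved Osgin1 by 0.22 on the log2 scale (95% interval -0.28 to 0.73, limma adjusted p = 0.655), with overlapping groups. The test of the difference between the 2 effects of DIDS, the interaction, gave -1.03 for Osgin1 (95% interval -1.74 to -0.32, limma adjusted p = 0.269). It did not pass, and neither did any other member (0 of 9, against 0.502% of all tested probes). Only Osgin1 had an unadjusted p below the threshold there, at 0.00834, as did 1812 of all 16717 tested probes. Over both pairs of groups together, the 6 arrays with DIDS set against the 6 without, Osgin1 was 0.74 higher on the log2 scale (95% interval 0.38 to 1.09, limma adjusted p = 0.0398), 1 of 9 member probes against 2.23% of all tested probes in either direction and 0.455% in the higher direction. This average call held in 1 of 12 fits without 1 array, the one without Control ACSF 2.

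The raw scanner signals of Osgin1, before any normalization, were 105.5 and 121.2 on IS + DIDS 2 and 3, 405.4 and 314.7 on ACSF + DIDS 2 and 3, 168.2 and 118.4 on IS 1 and 3, and 163.2, 244.1 and 137.3 on Control ACSF 1 to 3. Both ACSF + DIDS signals stood above the others before normalization too. The IS 1 export had a median signal of 131.9 and the other exports 69.5 to 83.6, so its 168.2 is not comparable with their signals. When the scanner signals were processed with limma's neqc, whose lowest log2 level was 7.52 and whose median was 7.63, no member passed in ACSF + DIDS against Control ACSF or in IS + DIDS against ACSF + DIDS in any of 7 ways of grouping the arrays. The Osgin1 differences were then 0.18 to 0.49 and -0.62 to -0.30 on the log2 scale. With normexp on the 9 scanner arrays the differences were 1.13 (adjusted p = 0.148) and -1.78 (adjusted p = 0.0341). In IS against Control ACSF the Osgin1 differences were -0.15 to 0.01 over the 7 neqc groupings and -0.78 with normexp (limma adjusted p = 0.189). The bound of 1.54-fold given above for that comparison thus does not carry over to the neqc values.

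**Figure D2:**
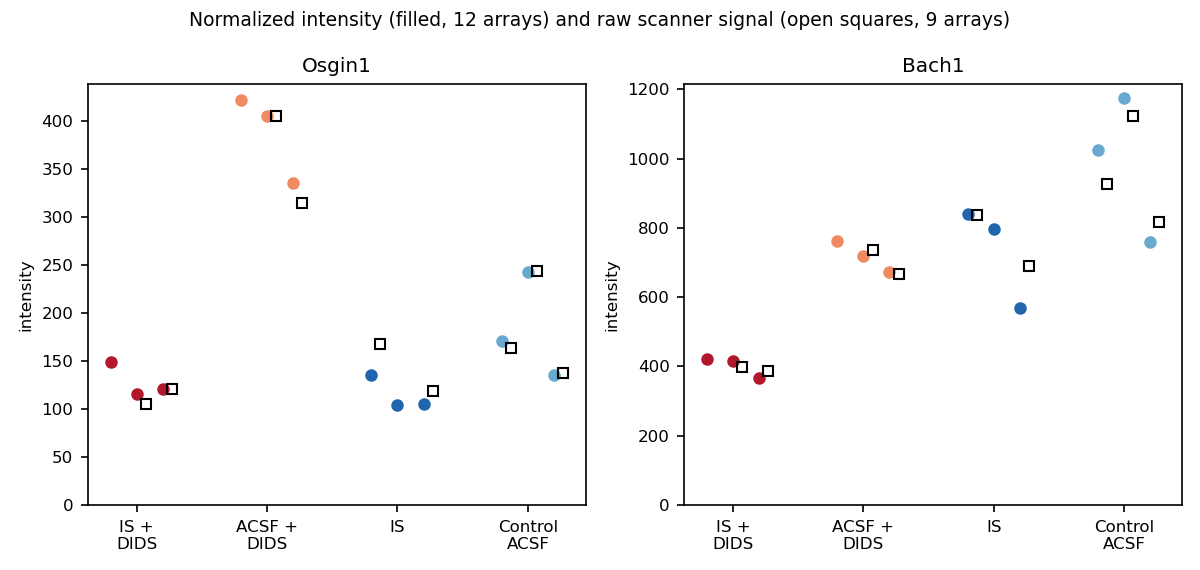
Osgin1 (left) and Bach1 (right) on each array, as normalized intensity from the authors' table (filled circles, 12 arrays) and as raw scanner signal (open squares, the 9 arrays that have one), with the groups along the horizontal axis and a linear vertical axis from 0. Osgin1 is high on the 3 ACSF + DIDS arrays in the table and on the 2 of them that have a raw signal, and Bach1 is low on the 3 IS + DIDS arrays, at 365.2 to 420.4 in the table.

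The genes of the glutathione branch did not pass in any comparison. Gclm had 1598.5, 1419.6 and 1159.9 on the IS + DIDS arrays, 1239.6, 1397.6 and 1698.7 on the ACSF + DIDS arrays, 1593.1, 1453.1 and 1213.5 on the IS arrays, and 1380.8, 1687.2 and 1259.3 on the Control ACSF arrays. All 4 groups covered nearly the same range, and no Gclm difference exceeded 0.06 in size on the log2 scale in the 4 pairwise comparisons. Slc7a11 was the other dim member, with scores of 0.99002 to 0.99938 on the 9 scored arrays, just above the 0.99 required. Its intensity was 199.4, 142.3 and 125.2 on the IS + DIDS arrays, 147.1, 162.1 and 180.7 on the ACSF + DIDS arrays, 170.2, 225.3 and 199.1 on the IS arrays, and 180.9, 163.6 and 168.1 on the Control ACSF arrays. The IS + DIDS and IS arrays overlapped only through IS + DIDS 1, the array that stood apart. The log2 difference of IS + DIDS against IS was -0.41 (95% interval -0.84 to 0.01, limma adjusted p = 0.29), and without IS + DIDS 1 it was -0.65 (adjusted p = 0.0498). Slc7a11 did not pass without any other single array, with -0.24 without IS + DIDS 3 (adjusted p = 0.559) and -0.30 without IS 2 (adjusted p = 0.536). With neqc on the 9 scanner arrays, grouped by the matching column, it had -0.10 (adjusted p = 0.345). No member probe passed in this comparison on all arrays (0 of 9, against 3.02% of all tested probes). Only the brightest Srxn1 probe had an unadjusted p below the threshold, at 0.0457, as did 3054 of all 16717 tested probes. Gclm lies at chr3:122245487-122267215 and Slc7a11 at chr3:50364936-50499087.

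Sulfiredoxin was read by 3 probes, all detected on the 9 scored arrays, and none passed. The brightest probe, scl0076650.1_42-S, had 1439.8, 1075.4 and 991.5 on the IS + DIDS arrays, 1531.4, 1315.4 and 1478.4 on the ACSF + DIDS arrays, 1352.4, 1479.3 and 1626.2 on the IS arrays, and 1413.8, 1869.1 and 1445.5 on the Control ACSF arrays. The second, scl076650.2_28-S, had 348.3, 498.8 and 451.1 on the IS + DIDS arrays, 570.6, 639.5 and 501.6 on the ACSF + DIDS arrays, 505.1, 565.1 and 469.9 on the IS arrays, and 550.6, 657.4 and 544.3 on the Control ACSF arrays. A further probe, scl076650.2_4-S, had 477, 571.3 and 607 on the IS + DIDS arrays, 679, 818.6 and 713.9 on the ACSF + DIDS arrays, 724.7, 666.3 and 613.3 on the IS arrays, and 678.9, 857.7 and 784.8 on the Control ACSF arrays. The IS + DIDS group had the lowest mean on each of the 3 probes, and on the scl076650.2_4-S probe its values lay below those of every other array. IS + DIDS was below ACSF + DIDS by log2 differences of -0.31, -0.41 and -0.42 on the 3 probes (limma adjusted p = 0.272, 0.171 and 0.121), and below IS by -0.35, -0.26 and -0.27 (adjusted p = 0.263, 0.415 and 0.314). On the fitted log2 levels the groups of IS + DIDS and ACSF + DIDS did not overlap for 2 of 9 member probes, the scl076650.2_4-S probe of Srxn1 and Osgin1, against 26% of all tested probes. The same count was 1 of 9 against 23% for IS + DIDS and IS, again the scl076650.2_4-S probe, 1 of 9 against 15.6% for ACSF + DIDS and Control ACSF, and 1 of 9 against 15.8% for IS and Control ACSF, Osgin1 in both. These last 2 Srxn1 probes varied together over the 12 arrays (Pearson r = 0.883, as a description), while the brightest correlated with them at 0.311 and 0.373, so the probes of this gene did not all follow 1 pattern. Srxn1 lies at chr2:152105524-152111376.

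**Figure D3:**
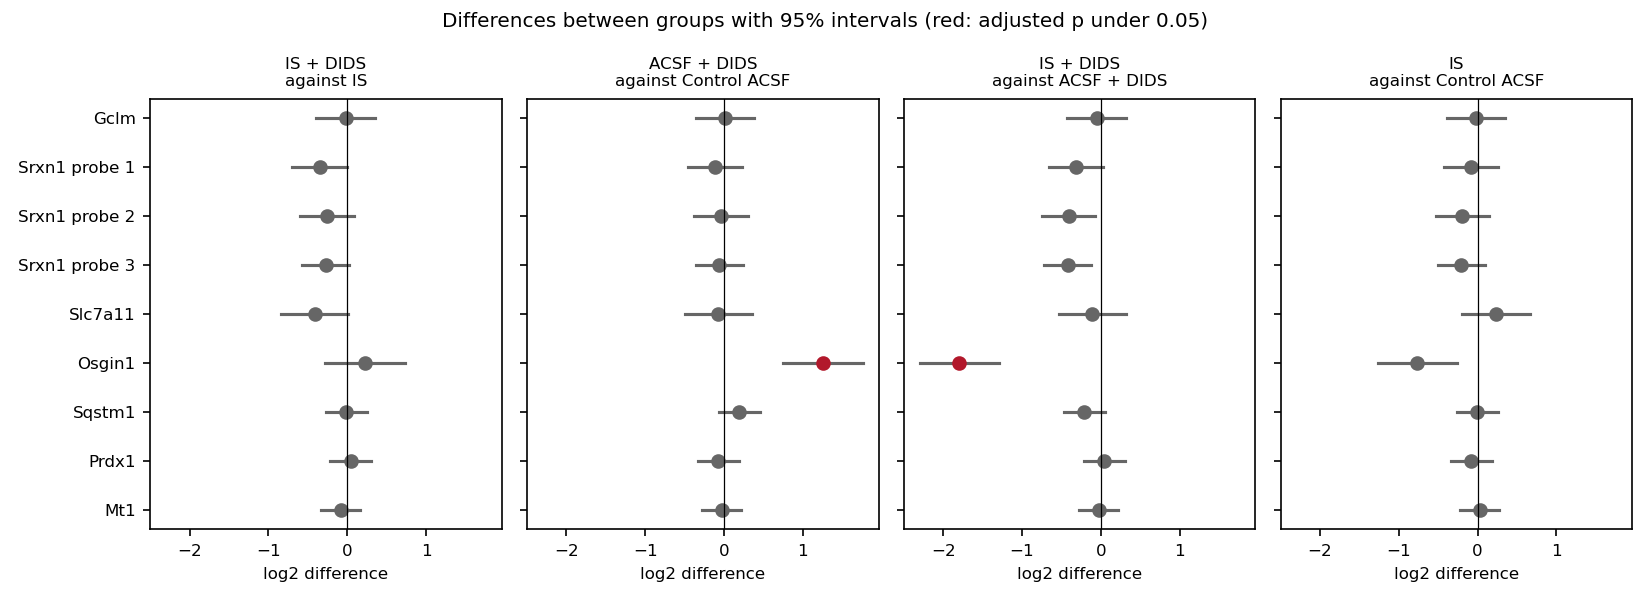
Log2 differences (horizontal axes) of the 9 probes in the 4 pairwise comparisons, 1 panel each, with 95% intervals as lines and red points for an adjusted p under 0.05. Osgin1 is the only red point, at 1.25 for ACSF + DIDS against Control ACSF and at -1.79 for IS + DIDS against ACSF + DIDS, and the Srxn1 points sit left of 0 in all 4 panels without passing.

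The brightest members differed little between group means. Prdx1 had 18102.1 to 22542.3 on the IS + DIDS arrays, 18780.4 to 19364.7 on the ACSF + DIDS arrays, 17336.1 to 21906.1 on the IS arrays and 19542.1 to 20668.3 on the Control ACSF arrays. Its log2 differences in the 4 pairwise comparisons were between -0.08 and 0.05, with 95% intervals reaching -0.34 and 0.31. Mt1, the brightest of the 9 probes, had 29158.4 to 33471.4 on the IS + DIDS arrays, 31499.7 to 34766.8 on the ACSF + DIDS arrays, 32386.6 to 37332.7 on the IS arrays and 33382.4 to 36253.3 on the Control ACSF arrays. Its widest pairwise difference was -0.08, for IS + DIDS against IS (95% interval -0.33 to 0.17). Intensities of different probes are not comparable as amounts of RNA, and very bright probes may be compressed near the top of the scanner's range, which was not tested.

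Sqstm1 had 10551.5, 11363 and 10145.3 on the IS + DIDS arrays, 11348.6, 12487.9 and 13166.2 on the ACSF + DIDS arrays, 10484.3, 10409.5 and 11347.2 on the IS arrays, and 9453.3, 10544.7 and 12339.3 on the Control ACSF arrays. The ACSF + DIDS mean of 12334 ± 918 was above the IS + DIDS mean of 10687 ± 620 and the Control ACSF mean of 10779 ± 1457 (SD, n = 3 each), but the values overlapped by array. The log2 difference was -0.21 for IS + DIDS against ACSF + DIDS (limma adjusted p = 0.331). In order of mean intensity the 4 groups thus ran ACSF + DIDS, Control ACSF, IS, IS + DIDS for Sqstm1, with the last 3 within 1 SD of each other. Prdx1 lies at chr4:116685599-116700000, Mt1 at chr8:94178883-94180327 and Sqstm1 at chr11:50200152-50210820.

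Around these members, 8 lists of the pathway held 87 genes, of which 36 had a probe that could be named and 32 were tested, the 7 members among them. Neither Nfe2l2, which encodes NRF2, nor Keap1 had a probe that could be named. Of the 25 other tested genes only Bach1 passed, lower in 3 comparisons. It did so in IS + DIDS against IS (1 of 25 lower and 0 higher, against 2.2% of all tested probes lower), in IS + DIDS against ACSF + DIDS (1 of 25 lower and 0 higher, against 1.56% lower) and in the average of both DIDS differences (1 of 25 lower and 0 higher, against 1.78% lower). None of the 25 passed in the other 3 comparisons. Of the 25, an unadjusted p below the threshold was reached by 6 in IS + DIDS against IS, 5 in IS + DIDS against ACSF + DIDS, 4 in the average of both DIDS differences, 2 in the interaction, and 1 each in ACSF + DIDS against Control ACSF and IS against Control ACSF, Bach1 included in all but the interaction. Over all 16717 tested probes these counts were 3054, 3498, 2828, 1812, 1458 and 1493, in the same order of comparisons. The 5 genes besides Bach1 in IS + DIDS against IS were Glrx, Nqo2, Akr1b3, Mgst3 and Calcoco1. All were above 0, at log2 differences of 0.36 to 0.55 (limma adjusted p = 0.0789 to 0.253). The medians of the 25 log2 differences were 0.08 for IS + DIDS against IS, -0.04 for ACSF + DIDS against Control ACSF, 0.07 for IS + DIDS against ACSF + DIDS and -0.05 for IS against Control ACSF, beside 0.03, 0.01, 0.02 and 0.00 over all tested probes.

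Bach1, the repressor that competes with NRF2 for the ARE, had 420.4, 415.8 and 365.2 on the IS + DIDS arrays, 760.9, 719 and 671.3 on the ACSF + DIDS arrays, 839.6, 796.9 and 567.3 on the IS arrays, and 1025.2, 1173.2 and 759.1 on the Control ACSF arrays. The 3 IS + DIDS values lay below those of all other arrays, and the other groups overlapped. Beside the difference from ACSF + DIDS stand the values of the markers of all 5 lists given above for Osgin1. In IS + DIDS against IS, Gfap had a log2 difference of -0.39 (limma adjusted p = 0.166) and the microglial marker Csf1r 0.48 (adjusted p = 0.192). Of the 4 astrocyte markers 2 were above 0 and 2 below there (-0.39 to 0.31). The 4 microglial markers were all above 0 (0.14 to 0.48). Bach1 fell by 0.88 on the log2 scale in IS + DIDS against IS (95% interval -1.28 to -0.48, limma adjusted p = 0.0259) and by 0.86 in IS + DIDS against ACSF + DIDS (95% interval -1.26 to -0.47, adjusted p = 0.0303). DIDS in ACSF and ischemic solution alone gave -0.45 (adjusted p = 0.514) and -0.43 (adjusted p = 0.496), neither of which passed, and the interaction was -0.43 (adjusted p = 0.572). The first call was lost without IS + DIDS 2, IS + DIDS 3, IS 1 or IS 2 (adjusted p = 0.0675 to 0.131), and with chip as a block it was -0.58 (adjusted p = 0.074). The second was lost without any 1 array of the 2 groups compared (adjusted p = 0.0542 to 0.106). On the scanner signals neither call was made in any of the 7 neqc groupings, where the differences were -0.79 to -0.70 and -0.82 to -0.47, or with normexp (-0.84, adjusted p = 0.124, and -0.83, adjusted p = 0.207). Of all 32 alternatives, the first call held in 16 and the second in 14. Within chip 2, with 1 IS array and 2 of each DIDS group, the differences were -0.56 (adjusted p = 0.204) and -0.86 (adjusted p = 0.0932). With ACSF + DIDS 2 counted as IS + DIDS they were -0.66 (adjusted p = 0.247) and -0.64 (adjusted p = 0.503). In the average of both DIDS differences the log2 difference was -0.66 (adjusted p = 0.0208). That call was lost without IS + DIDS 3, ACSF + DIDS 2 or 3, IS 1 or 2, or Control ACSF 1 or 2 (adjusted p = 0.0524 to 0.0665), and with chip as a block, at -0.35 (adjusted p = 0.192).

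**Figure D4:**
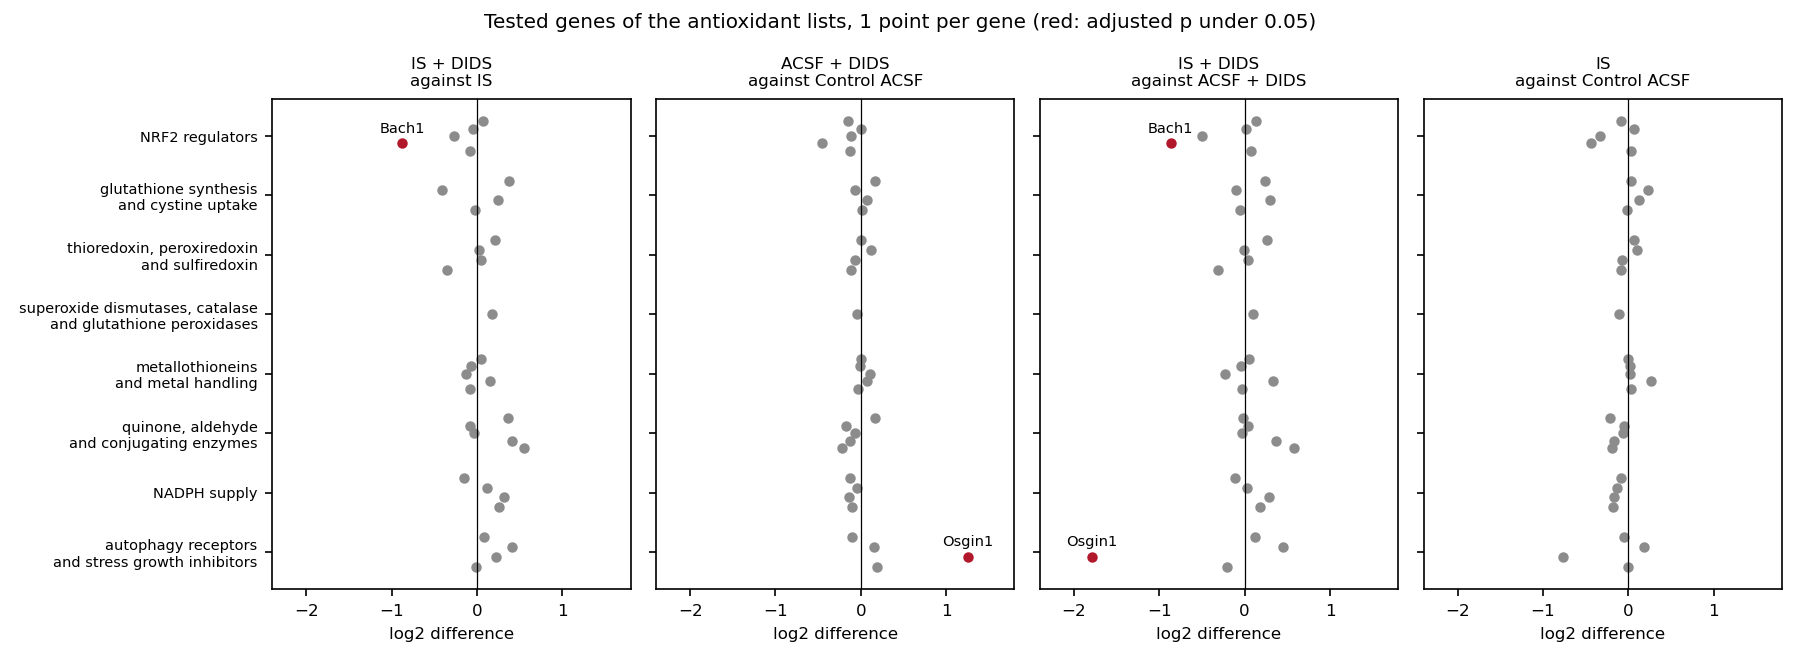
Log2 differences (horizontal axes) of the 32 tested genes of the 8 pathway lists, 1 point per gene, with lists down the page and the 4 pairwise comparisons in panels; red points have an adjusted p under 0.05 and carry the gene's name. Bach1 is red at -0.88 and -0.86 and Osgin1 at 1.25 and -1.79, while the other points lie mostly near 0.

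Other regulators that were tested, Nfe2l1, a relative of NRF2, Mafg, a partner of both NRF2 and BACH1, and Cul3 and Rbx1 of the ligase that works with KEAP1, did not pass, and Mafg had -0.19 over both DIDS differences (limma adjusted p = 0.407) and -0.34 in IS against Control ACSF (adjusted p = 0.569). Mafg had 1379.1 to 1607 on the IS + DIDS arrays and 1921.9 to 2215.4 on the ACSF + DIDS arrays, and did not pass between them. These 2 groups did not overlap for 26% of all tested probes. Among enzymes, Glrx, which removes glutathione from proteins, had 0.27 over both DIDS differences (limma adjusted p = 0.107). The microsomal glutathione transferase Mgst3 had 0.26 (adjusted p = 0.172). Calcoco1, from the list of autophagy receptors and stress growth inhibitors, had 0.28 (adjusted p = 0.291). None of these 3 passed. The quinone reductase Nqo2 had log2 differences of 0.55 in IS + DIDS against IS and 0.58 in IS + DIDS against ACSF + DIDS, with unadjusted p = 0.00367 and 0.00264. It did not pass after adjustment in either. The superoxide dismutase Sod1 (0.06), the metallothionein Mt3 (0.11), the ferritin heavy chain Fth1 (-0.04), the isocitrate dehydrogenase Idh1 (-0.14), the pentose phosphate enzymes Taldo1 (0.09) and Pgd (0.07), and the glutathione synthetase Gss (0.16) had these log2 values over both DIDS differences, and none passed. The peroxiredoxins Prdx6 (0.11) and Prdx5 (0.07), the glutathione transferase Gstp1 (-0.13) and the aldose reductase Akr1b3 (0.14) did not pass either.

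Across the 12 arrays the members did not share 1 pattern. Apart from pairs of Srxn1 probes, the correlations between member probes ran from -0.333, for Sqstm1 and Prdx1, to 0.586, for Slc7a11 and the brightest Srxn1 probe (Pearson r, descriptions over arrays that share groups and normalization). The named probes most like Osgin1 were Erf (r = 0.874), Errfi1 (0.872) and Frmd6 (0.871). For Gclm they were Nat8f3 (0.861), Psenen (0.86) and Spata5l1 (0.836), and for the brightest Srxn1 probe Ctsb (0.891), Mob1a (0.863) and Sft2d2 (0.859). Slc7a11 was most like Dab1 (0.815), Sqstm1 most like Zfp131 (0.867), Prdx1 most like Cnnm2 (0.932) and Mt1 most like Kat6b (0.774). These are the highest of 5026 named probes tested.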

How the data were processed

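Total RNA of 12 samples in 4 groups of 3 was measured on bead arrays. The authors deposited scanner exports with bead intensity per probe, not normalized between arrays per the file headers (BeadStudio 2.3.47; 2.0 per the submitters' processing notes), and a deposited detection score, a fraction from 0 to 1 that is near 1 for detected probes. They also deposited a value table of linear intensities, normalized between arrays by a method not given in the sources used here, without background subtraction (column medians 80.6 to 82.5).

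Each distinct export matched 1 table column best. As 3 arrays have values only in the table, its 12 columns were analysed in place of the 7 exports whose titles name 1 group, which were first meant for the tests, and normexp (offset 16) with quantile normalization and log2 took the place of neqc. Probes scored above 0.99 on at least 3 of 9 exports were tested, with 1 coefficient per group (limma 3.58.1, R 4.3.3; 8 residual degrees of freedom), 95% intervals and Benjamini-Hochberg adjustment over 16717 probes, at a threshold of 0.05. The difference of DIDS against no DIDS is the mean of both DIDS contrasts; the fit first meant for it, 8 exports with chip as a term, is an alternative. Bounds use the detection limit and leave out the spread between arrays. Where a gene of a list had several probes, the brightest stood for it.

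Genes were named from the Entrez number in the probe identifier, found in the reference for 9796 of 11857 numbers. The members, the gene lists and the rule for naming genes were chosen with earlier results of these data known. The rule names all member probes, list genes that pass, up to 3 genes per list with the smallest adjusted p in DIDS against no DIDS and in IS against Control ACSF, and the 3 most correlated named probes per member; only the first of these is given for 4 members, and Nqo2, the genes listed by unadjusted p and the single markers were named after their values were seen. The Mafg intensities were likewise given after their values were seen. Same-numbered replicates were not treated as pairs in the main fit. Their deviations correlated at -0.321 to 0.417, with 10 of 18 above 0.1, and those of arrays with other numbers at -0.331 to 0.406. These values do not settle whether the replicates were paired, and a replicate block is an alternative. On simulated data for IS against Control ACSF (16717 probes, 200 changed), 9 of 50 changes of 0.5 on the log2 scale, 39 of 50 of 1, 45 of 50 of 1.5 and 49 of 50 of 2 were recovered, with 2 false calls. Array number limits the precision. Promoters were searched with Python 3.11.15.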

Additional observations from a re-analysis of the deposited data

How the results depend on the processing

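Over 31 alternatives Osgin1 kept its direction in ACSF + DIDS against Control ACSF and in IS + DIDS against ACSF + DIDS, and passed in 15 and 23. In IS against Control ACSF it was lower in 28 of 31. With Osgin1 removed by requiring detection on all 9 exports, 0 members passed in these comparisons or in DIDS against no DIDS. The same count of 0 was found in all 3 with ACSF + DIDS 2 counted as IS + DIDS and in each grouping of the neqc signals, and in the first and the last with normexp on scanner signals and with the 9 arrays of known chip and no block. For DIDS against no DIDS it was also 0 with no filter, with chip as a block, within chip 2, and with 8 exports and chip as a term. With arrayWeights 1 member probe passed in IS against Control ACSF, 2 in IS + DIDS against IS, 4 in IS + DIDS against ACSF + DIDS, 1 in the interaction and 3 in DIDS against no DIDS; the cause was not tested. The count over all probes in that fit is not given here, and over all alternatives such counts reached 3384. The arrayWeights counts are therefore not read as a result about the members. Leaving out 1 array gave 0 to 1 members in IS + DIDS against IS, ACSF + DIDS against Control ACSF and DIDS against no DIDS. The replicate block left Osgin1 at 1.25 (adjusted p = 0.0245) and -1.79 (adjusted p = 0.00264) and changed no count of members. Counts over all probes were 0 to 747 in ACSF + DIDS against Control ACSF (94 reported), 0 to 3337 in IS + DIDS against ACSF + DIDS (426), 0 to 2861 in IS + DIDS against IS (505), 0 to 406 in IS against Control ACSF (148), 0 to 628 in the interaction (84) and 0 to 3384 in DIDS against no DIDS (373). Dim signal limits Osgin1 and Slc7a11 most. The scoring of the 3 arrays known only from the table, and their chip, are not given.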
